A study of Homo sapiens with 6 samples.

Results

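The genes described here are 40 genes of protein folding, quality control and protein disposal in the endoplasmic reticulum (ER), with the sensors and transcription factors that regulate them. They were taken by symbol from the deposited table, where all 40 of them are listed among 26819 genes, and all 40 passed the filter of at least 1 TPM in at least 3 libraries that 14833 genes passed. The rule itself uses no measured value, although the genes were proposed with earlier results of these data known. TPM corrects the reads of a gene for its length and for the size of the library, so levels can be compared between genes and are relative within a library.

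The libraries come from the C4-2 line, human prostate cancer cells that descend from LNCaP and grow without androgen. All 6 libraries carry Tet-O-YAP5SA, a doxycycline-inducible transgene for the transcriptional coactivator YAP1 with 5 serine-to-alanine changes, named in the labels as 5SA. Ctrl stands for 3 libraries from cells without doxycycline, and Dox for 3 libraries from cells given doxycycline for 24 hours at a labelled 0.2 mg/ml, a dose whose unit is in doubt. Cells without the transgene that received doxycycline are not among these samples, so an effect of the drug and an effect of YAP1 cannot be told apart. The comparison asks whether the ATF6 and XBP1 branches of the unfolded protein response move when active YAP1 is switched on. Separate cultures are not stated for the replicates, and the p-values reflect library-to-library spread, which may be technical.

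The ER folds secreted and membrane proteins with the help of the HSP70 chaperone BiP, the HSP90 chaperone GRP94, the lectin chaperones calnexin and calreticulin, and protein disulfide isomerases. Proteins that fail to fold are recognized, moved back across the membrane and handed to the proteasome, a process called ER-associated degradation. When unfolded proteins build up, 3 membrane sensors respond: ATF6 is cut in the Golgi by the site-1 and site-2 proteases to release a transcription factor, IRE1 (gene ERN1) splices the XBP1 messenger RNA, and PERK (gene EIF2AK3) phosphorylates eIF2alpha. Secretory epithelium such as that of the prostate carries a heavy load of ER folding. Activation of ATF6 by cleavage and of XBP1 by splicing is not read by gene-level TPM, so the values below are transcript levels only.

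Recovered reads came to 24941836 to 29239717 per library. The transgene's own gene YAP1 went from 52.7, 57.9 and 59.9 TPM in Ctrl to 263, 277 and 268 TPM in Dox, and the YAP target CTGF was between 0.191 and 0.453 TPM in Ctrl and between 384 and 408 TPM in Dox, in the direction the labels give. All 10 luminal prostate markers had a mean of at least 1 TPM, with a summed level of 6586 to 6687 TPM in Ctrl and 5523 to 5624 TPM in Dox. Of 12 markers of immune, endothelial and stromal cells, 9 are listed and 2 of these, CD68 and VWF, had a mean of at least 1 TPM. Their summed level was 21.1 to 23.1 TPM in Ctrl and 14.4 to 15.2 TPM in Dox, and the other 3 were not analysed here. The markers did not move together: CD68 fell from 20.2 ± 0.9955 to 9.86 ± 0.508 TPM, and VWF rose from 1.25 ± 0.116 to 3.74 ± 0.226 TPM (limma adjusted p = 1.03e-05 and 6.58e-05). CDH5, under the filter and not tested, was at most 0.0197 TPM in Ctrl and between 0.381 and 0.567 TPM in Dox. The part of these markers in the results below was not tested. The labels name only C4-2 cells and no other cell type. In such bulk libraries, fewer cells with a transcript and less of it per cell cannot be told apart.

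Most ER genes changed little, and they changed in both directions. Of the 40 genes, 15 were higher and 10 lower with doxycycline in limma's test on log2(TPM + 1), at a Benjamini-Hochberg adjusted p under 0.05 over all tested genes. The called share was 62.5% of the 40 genes against 53.7% of all tested genes. For higher calls it was 37.5% against 35.9%, and for lower calls 25.0% against 17.8%. The log2 fold changes ran from -0.36 (ERN1) to 0.58 (EDEM1). Their median size, sign left aside, was 0.18, against 0.23 over all tested genes. The median with its sign was 0.07, against 0.10 over all tested genes. The 2 groups stood fully apart in 26 of the 40 genes (65.0%), as they did in 61.9% of all tested genes.

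At this size the scaling between libraries matters. As deposited the split was 15 higher and 10 lower, and median-ratio rescaling turned it to 9 and 16, with 26.7% of all tested genes higher and 26.6% lower. Quantile normalization gave 12 and 13, with 23.8% of all tested genes higher and 29.3% lower. Median-ratio rescaling moved the median of all tested genes from 0.10 to 0.00, and quantile normalization moved it to -0.04. Under these 2 rescalings and all 13 other alternatives run, 6 genes were called higher (HSPA5, CRELD2, EDEM1, ATF6, ATF6B and CREB3) and 7 were called lower (ERN1, XBP1, HERPUD1, SYVN1, DNAJC3, DNAJC10 and PDIA5). The plot of log2 fold changes under 3 scalings shows these 13 genes on one side of 0 throughout.

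**Figure D1:**
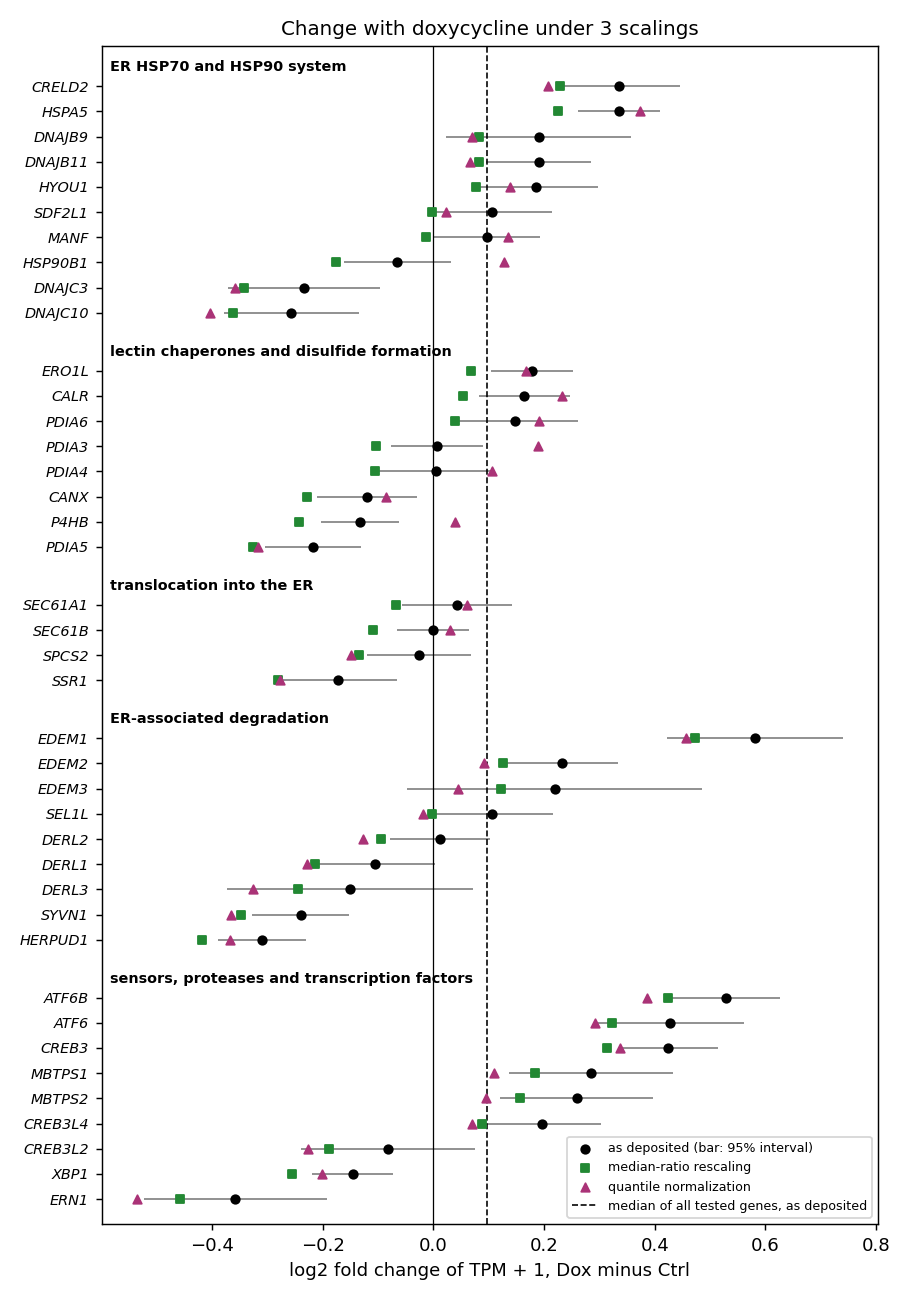
Log2 fold change (Dox minus Ctrl) of each gene by role, as deposited with its 95% interval (black circles and bars), with median ratios (green squares) and with quantiles (purple triangles). The dashed line is the median of all tested genes as deposited (0.10); EDEM1, ATF6B, ATF6 and CREB3 lie to its right, and ERN1, HERPUD1, DNAJC10, SYVN1 and PDIA5 to the left of 0, under all 3 scalings.

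Of the 9 sensors, proteases and transcription factors, 6 were higher and 2 lower (5 and 3 with median ratios, 3 and 3 with quantiles). Over all tested genes 35.9% were higher and 17.8% lower (26.7% and 26.6% with median ratios, 23.8% and 29.3% with quantiles). The transcripts of ATF6 and ATF6B were higher and those of ERN1 and XBP1 lower under all 3 scalings. ATF6, the membrane-bound transcription factor of the first branch, was at 22.1, 24.5 and 21.6 TPM in Ctrl and at 31.6, 31.3 and 29.98 TPM in Dox. Every Dox library lay above every Ctrl library, and ATF6 rose 1.36-fold (log2 fold change 0.43 ± 0.06 SE, limma adjusted p = 0.000501). Its relative ATF6B, which is cut in the same way, went from 20.5, 21.1 and 21.1 TPM to 31.0, 30.8 and 29.9 TPM. ATF6B rose 1.46-fold (log2 fold change 0.53 ± 0.04, limma adjusted p = 3.35e-05), the smallest adjusted p of the 40 genes.

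MBTPS1 and MBTPS2, the site-1 and site-2 proteases that release ATF6 and also the sterol-sensing SREBP proteins, were higher as well. MBTPS1 was at 11.5, 12.6 and 11.2 TPM in Ctrl and at 14.4, 15.2 and 14.1 TPM in Dox. MBTPS2 was at 12.6, 14.0 and 13.3 TPM and at 16.0, 16.9 and 15.5 TPM. The groups did not overlap for either gene, and both rose by a similar factor (1.24-fold and 1.21-fold). The calls of MBTPS1 and MBTPS2 hold after median-ratio rescaling (limma adjusted p = 0.0208 and 0.0224). Both end after quantile normalization (limma adjusted p = 0.105 for each).

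CREB3, a Golgi-processed factor of the same structural family as ATF6, was at 108, 102 and 103 TPM in Ctrl and at 142, 143 and 135 TPM in Dox. It rose 1.34-fold (log2 fold change 0.42 ± 0.04, limma adjusted p = 7.24e-05). CREB3L4, a family member known for its expression in prostate, rose 1.15-fold from 39.6 ± 2.04 to 45.4 ± 0.286 TPM, a call that ends after median-ratio rescaling (limma adjusted p = 0.137) and quantile normalization (0.223). CREB3L2, which is known to drive genes of secretory capacity, was at 31.0, 34.4 and 33.0 TPM and at 28.2, 32.9 and 31.7 TPM. Its groups overlapped, and it did not pass the test as deposited (log2 fold change -0.08, 95% interval -0.24 to 0.07). Both rescalings call it lower (-0.19 with median ratios, -0.23 with quantiles), as does limma voom (-0.12), run on reads recovered from TPM and added after the data were seen.

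ERN1, which encodes IRE1, was the sensor with the lowest level, at 11.5, 13.5 and 12.4 TPM in Ctrl and at 9.17, 9.41 and 9.91 TPM in Dox. All Dox libraries lay below all Ctrl libraries. ERN1 fell 1.31-fold (log2 fold change -0.36 ± 0.07, limma adjusted p = 0.00379). XBP1, whose messenger RNA is the substrate of IRE1, was at 201, 207 and 207 TPM in Ctrl and at 189, 186 and 180 TPM in Dox. XBP1 fell 1.11-fold (log2 fold change -0.15 ± 0.03, limma adjusted p = 0.00557), a small change that did not overlap between groups.

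**Figure D2:**
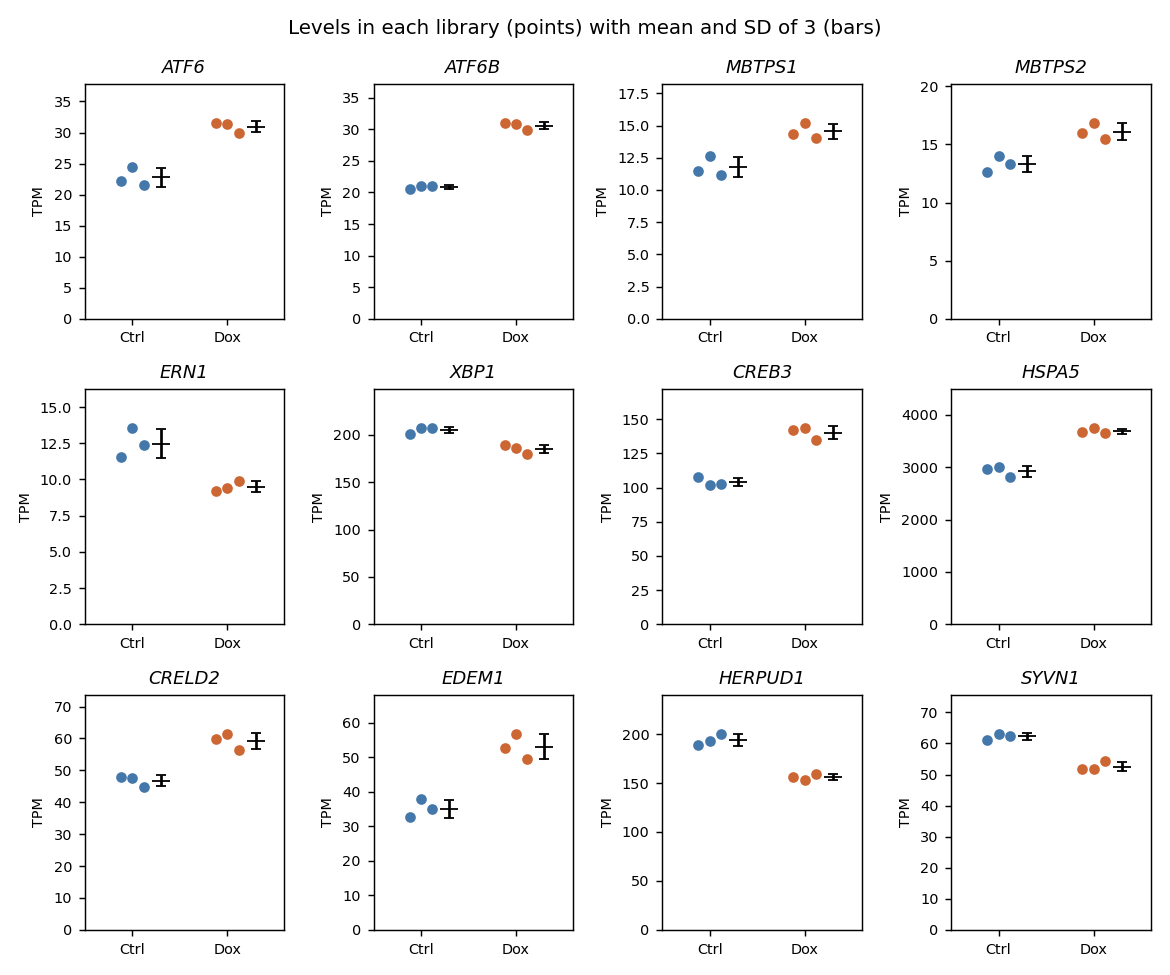
TPM of 12 sensor, chaperone and degradation genes in each library (points; blue Ctrl, orange Dox), with the mean and SD of 3 libraries (bars); each axis starts at 0. Dox points lie above Ctrl points for ATF6, ATF6B, MBTPS1, MBTPS2, CREB3, HSPA5, CRELD2 and EDEM1 and below them for ERN1, XBP1, HERPUD1 and SYVN1.

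A ratio of 2 genes within a library is the same as deposited and after median-ratio rescaling, which multiplies each library by 1 factor, but quantile normalization can change it. The ratio pairs were chosen after the values of their genes were seen, so the ratios are given as a description. ATF6 over ERN1 was 1.92, 1.81 and 1.75 in Ctrl and 3.44, 3.32 and 3.03 in Dox, 1.79-fold higher. ATF6 over XBP1 was 0.1102, 0.1186 and 0.1045 in Ctrl and 0.167, 0.168 and 0.166 in Dox, 1.505-fold higher. The third sensor gene EIF2AK3, which encodes PERK, fell from 30.2 ± 1.43 to 20.9 ± 0.838 TPM, and ATF6 over EIF2AK3 went from 0.756 ± 0.0794 to 1.485 ± 0.0466. In each of these ratios the highest Ctrl library lay below the lowest Dox library.

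**Figure D3:**
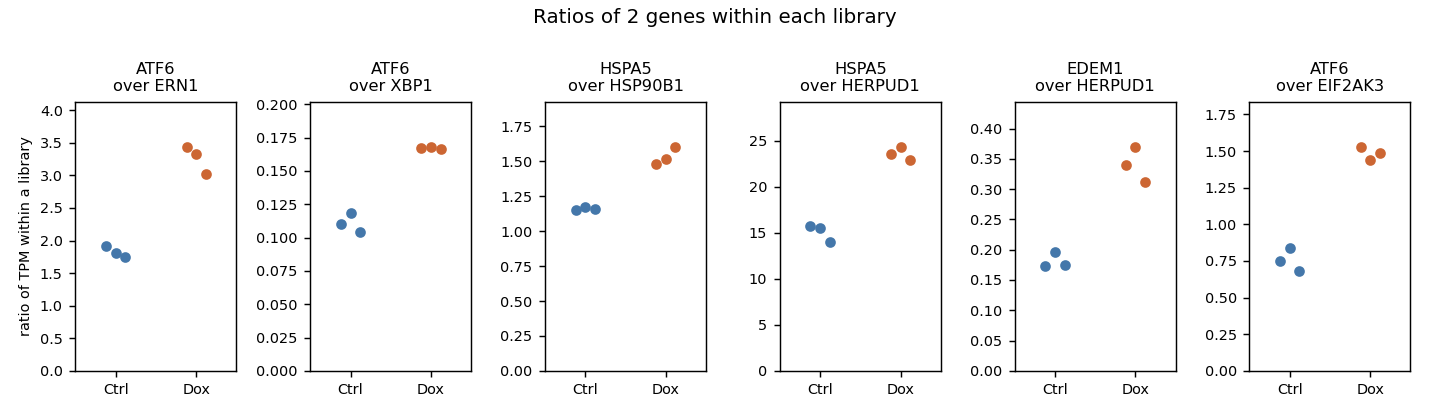
Ratio of the TPM of 2 genes within each library (points; blue Ctrl, orange Dox; axes from 0) for 6 gene pairs. In all 6 panels the 3 Dox libraries lie above the 3 Ctrl libraries, by 1.32-fold (HSPA5 over HSP90B1) to 1.97-fold (ATF6 over EIF2AK3) in the mean.

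Among the HSP70 and HSP90 chaperones and their partners, 4 of 10 were higher and 2 lower (2 and 3 with median ratios, 4 and 2 with quantiles). The shares of all tested genes were 35.9% and 17.8% (26.7% and 26.6% with median ratios, 23.8% and 29.3% with quantiles). HSPA5, which encodes BiP, the HSP70 chaperone of the ER lumen that also holds the sensors inactive, was at 2965, 3003 and 2808 TPM in Ctrl and at 3676, 3743 and 3650 TPM in Dox. These values rest on 93275 to 125472 reads. HSPA5 rose 1.26-fold (log2 fold change 0.34 ± 0.03, limma adjusted p = 8.82e-05), with no overlap between groups. HSP90B1, which encodes GRP94 and is often counted with HSPA5 as a target of ATF6, was at 2575, 2553 and 2423 TPM in Ctrl and at 2483, 2463 and 2274 TPM in Dox. Its groups overlapped and it did not pass the test as deposited (log2 fold change -0.07, 95% interval -0.16 to 0.03). Median-ratio rescaling (-0.18), the replicate block (limma adjusted p = 0.0457) and limma voom (adjusted p = 0.0108) each call it lower, and its estimate lies above 0 after quantile normalization (0.13, adjusted p = 0.0674). HSPA5 over HSP90B1 was 1.15, 1.18 and 1.16 within the Ctrl libraries and 1.48, 1.52 and 1.605 within the Dox libraries. The log2 fold changes of the 2 genes lie closer together after quantile normalization (0.37 and 0.13) than as deposited (0.34 and -0.07).

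CRELD2, a secreted disulfide isomerase-like protein induced by ER stress, was at 48.0, 47.5 and 44.8 TPM in Ctrl and at 59.9, 61.5 and 56.5 TPM in Dox. It rose 1.27-fold (log2 fold change 0.34 ± 0.05, limma adjusted p = 0.000648), as deposited a change as large as that of HSPA5. After quantile normalization the change of CRELD2 was smaller than that of HSPA5 (0.21 and 0.37). HYOU1, a large HSP70 relative that exchanges the nucleotide of BiP, rose 1.14-fold from 191 ± 8.47 to 217 ± 11.04 TPM. DNAJB11, a DNAJ cochaperone of BiP, rose 1.14-fold from 64.5 ± 2.498 to 73.7 ± 1.71 TPM. Both calls end after median-ratio rescaling (limma adjusted p = 0.171 for HYOU1 and 0.118 for DNAJB11), and that of DNAJB11 also after quantile normalization (0.171).

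The other cochaperones of BiP were lower or did not pass the test. DNAJC3, which encodes the cochaperone p58IPK, known as an inhibitor of PERK, was at 53.1, 60.3 and 57.3 TPM in Ctrl and at 46.4, 51.2 and 47.1 TPM in Dox and fell 1.18-fold (log2 fold change -0.23 ± 0.06, limma adjusted p = 0.0116). DNAJC10, a DNAJ protein with thioredoxin domains that reduces disulfides of proteins on their way to degradation, was at 21.4, 21.2 and 20.5 TPM and at 17.9, 18.1 and 16.5 TPM. It fell 1.21-fold (log2 fold change -0.26 ± 0.05, limma adjusted p = 0.00442). DNAJB9, which returns IRE1 to its inactive state, was at 62.3, 54.5 and 63.0 TPM in Ctrl and at 72.8, 69.6 and 63.0 TPM in Dox, so that the highest Ctrl and the lowest Dox library nearly met. It did not pass the test (log2 fold change 0.19, limma adjusted p = 0.0562). It passed with the stricter filter (adjusted p = 0.0329), with limma voom (0.0430) and without Dox replicate 3 (0.0219), and was farthest from passing after median-ratio rescaling (0.418) and quantile normalization (0.470).

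SDF2L1 and MANF are small ER proteins induced by stress. SDF2L1, a partner of DNAJB11 in keeping proteins soluble, was at 118, 105.5 and 109 TPM in Ctrl and at 116, 121 and 120 TPM in Dox. MANF, which binds BiP and can be secreted, was at 522, 507 and 481 TPM and at 545, 553 and 516 TPM. Both sets of libraries overlapped, and neither gene passed the test (95% intervals of the log2 fold change from -0.0021 to 0.21 and from 0.0007 to 0.19). SDF2L1 passed without Ctrl replicate 1 (0.15, limma adjusted p = 0.0197), and MANF passed after quantile normalization (0.13), with the replicate block (adjusted p = 0.0241) and without Dox replicate 3 (adjusted p = 0.0373). After median-ratio rescaling both estimates lie just under 0 (-0.0035 and -0.014).

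**Figure D4:**
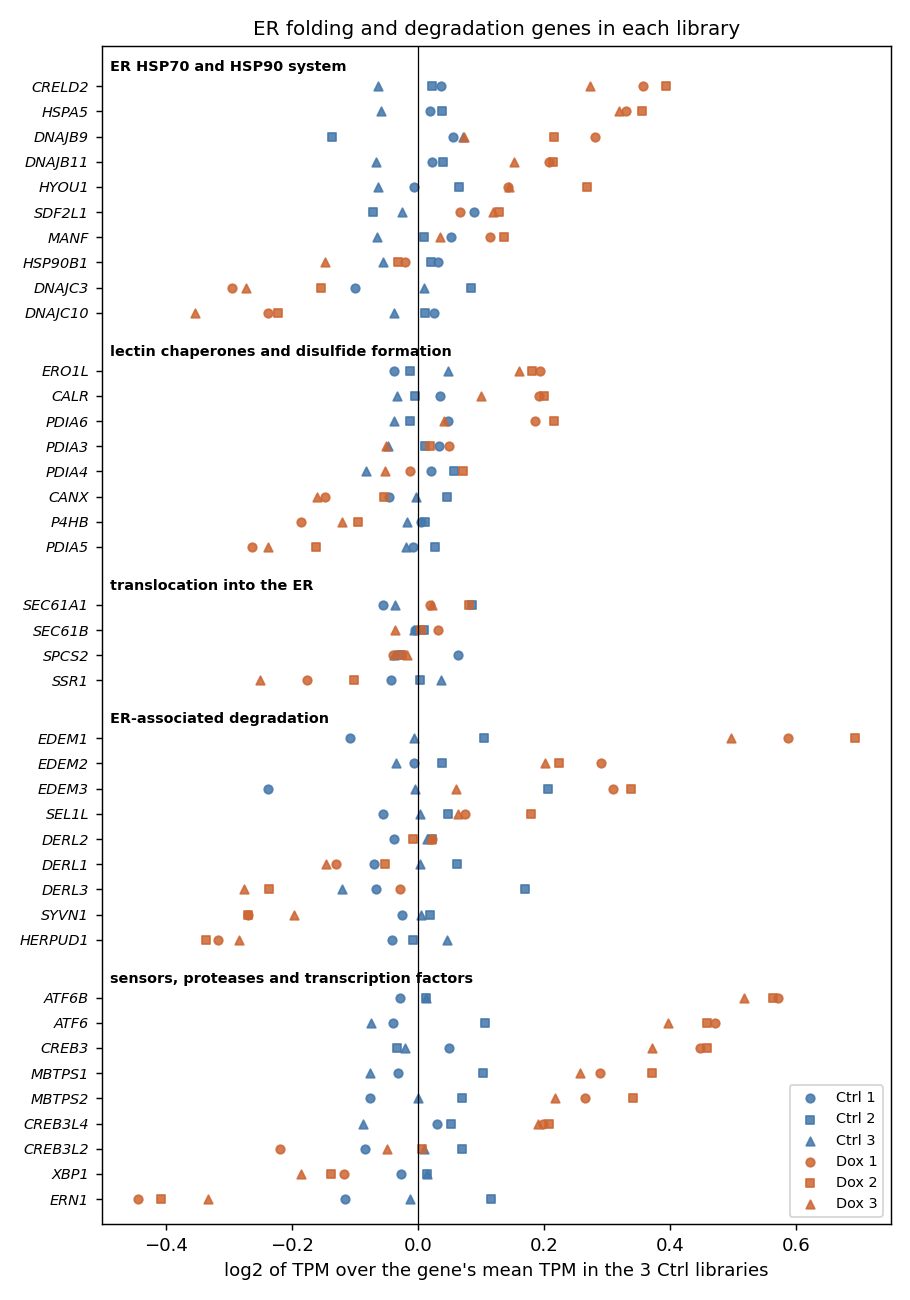
Level of each of the 40 genes in each library as log2 of its TPM over the gene's mean in the 3 Ctrl libraries (blue Ctrl, orange Dox; circle, square and triangle for replicates 1, 2 and 3), by role. The Dox points of HSPA5, EDEM1, ATF6, ATF6B and CREB3 lie apart on the right and those of ERN1, HERPUD1, SYVN1 and DNAJC10 apart on the left, while PDIA3, PDIA4, SEC61A1, SEC61B and DERL2 overlap.

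Of 8 lectin chaperones and disulfide-forming enzymes, 3 were higher and 3 lower (0 and 3 with median ratios, 4 and 1 with quantiles). The shares of all tested genes were 35.9% and 17.8% (26.7% and 26.6% with median ratios, 23.8% and 29.3% with quantiles). CALR, the soluble calcium-binding lectin calreticulin, had the highest level of the 40 genes, at 4301, 4184 and 4101 TPM in Ctrl and at 4793, 4819 and 4495 TPM in Dox. It rose 1.12-fold (log2 fold change 0.16 ± 0.04, limma adjusted p = 0.00553), a call that ends after median-ratio rescaling (adjusted p = 0.406). CANX, its membrane-bound relative calnexin, was at 481, 512 and 495 TPM and at 448, 478 and 444 TPM and fell 1.09-fold (limma adjusted p = 0.0329). The call of CANX ends after quantile normalization (limma adjusted p = 0.111), with no filter (0.0747), with no variance trend (0.0921), and without Ctrl replicate 2 (0.0972), Ctrl replicate 3 (0.0780), Dox replicate 1 (0.0868) or Dox replicate 3 (0.0908). The 2 lectins thus stood on opposite sides of 0, with the rise of CALR and the fall of CANX each lost under at least 1 rescaling.

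Among the protein disulfide isomerases, which form and rearrange disulfide bonds, PDIA5 fell 1.16-fold from 106, 108.5 and 105.1 TPM to 88.8, 95.2 and 90.4 TPM (log2 fold change -0.22 ± 0.04, limma adjusted p = 0.00185). In GENCODE 29, 12.2% of the exon bases of PDIA5 are shared with SEC22A on the same strand, so reads there may be assigned to either gene. P4HB, the classical isomerase that is also a subunit of prolyl 4-hydroxylase, fell 1.10-fold from 942 ± 9.65 to 860 ± 27.5 TPM. After quantile normalization its estimate lies above 0 and does not pass (0.04, limma adjusted p = 0.361). PDIA6 rose 1.11-fold from 516 ± 15.8 to 573 ± 36.4 TPM although Ctrl 1 (534 TPM) lay above Dox 3 (531 TPM). The call of PDIA6 ends after median-ratio rescaling (limma adjusted p = 0.576), with no filter (0.0884), with no variance trend (0.0845), and without Ctrl replicate 2 (0.0852), Ctrl replicate 3 (0.102), Dox replicate 1 (0.0938) or Dox replicate 2 (0.106).

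PDIA3, the isomerase that works with both lectins, was at 970 ± 28.4 and 974 ± 34.5 TPM, and PDIA4 at 664 ± 32.9 and 666 ± 29.1 TPM. The groups overlapped for both genes, with 95% intervals of the log2 fold change from -0.08 to 0.09 and from -0.10 to 0.11. PDIA3 is called higher after quantile normalization (0.19, limma adjusted p = 0.00660). ERO1L (now ERO1A), the oxidase that recharges the isomerases, was at 249.1, 254 and 264 TPM in Ctrl and at 292, 290 and 286 TPM in Dox. It rose 1.13-fold (log2 fold change 0.18 ± 0.03, limma adjusted p = 0.00223), and the call ends after median-ratio rescaling (adjusted p = 0.127).

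Of the 4 genes of entry into the ER, none rose and 1 fell (0 and 2 under either rescaling). The shares of all tested genes were 35.9% and 17.8% (26.7% and 26.6% with median ratios, 23.8% and 29.3% with quantiles). SEC61B, a small subunit of the translocation channel, was at 483, 489 and 483 TPM in Ctrl and at 496, 487 and 473 TPM in Dox, with a log2 fold change of -0.0001 (95% interval -0.07 to 0.07). Median-ratio rescaling calls it lower (-0.11, limma adjusted p = 0.0223), and its estimate is above 0 after quantile normalization (0.0295). The channel subunit SEC61A1 (351 ± 18.7 and 361 ± 8.72 TPM) and the signal peptidase subunit SPCS2 (48.1 ± 1.88 and 47.2 ± 0.376 TPM) did not pass the test, with 95% intervals of the log2 fold change from -0.06 to 0.14 and from -0.12 to 0.07, although SPCS2 is called lower after quantile normalization (limma adjusted p = 0.0308). SSR1, a subunit of the translocon-associated protein complex, was at 82.3, 84.9 and 86.9 TPM and at 75.0, 79.0 and 71.3 TPM. It fell 1.13-fold (log2 fold change -0.17 ± 0.05, limma adjusted p = 0.0145), a call that ends without Ctrl replicate 3 (adjusted p = 0.0543).

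Of the 9 genes of ER-associated degradation, 2 were higher, 2 were lower and 5 did not pass the test (2 higher and 5 lower with median ratios, 1 and 5 with quantiles). Over all tested genes 35.9% were higher and 17.8% lower (26.7% and 26.6% with median ratios, 23.8% and 29.3% with quantiles). Both called rises were of EDEM genes, which trim or recognize mannose on misfolded glycoproteins. EDEM1 was at 32.6, 37.8 and 35.0 TPM in Ctrl and at 52.8, 56.9 and 49.6 TPM in Dox. It rose 1.51-fold (log2 fold change 0.58 ± 0.07, limma adjusted p = 0.000265), more than any other of the 40 genes, and stayed so after median-ratio rescaling (0.47) and quantile normalization (0.46). EDEM2 rose 1.18-fold from 31.4 ± 0.791 to 37.1 ± 1.198 TPM, a call that ends after quantile normalization (limma adjusted p = 0.0935). EDEM3 was at 6.26, 8.52 and 7.36 TPM and at 9.14, 9.33 and 7.69 TPM. Its groups overlapped and it did not pass the test (log2 fold change 0.22, 95% interval -0.05 to 0.49), although it did without Ctrl replicate 2 (0.32, limma adjusted p = 0.0467).

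The called falls were of components of the ubiquitin ligase complex in the membrane. HERPUD1, which assembles the complex, was at 189, 193 and 200 TPM in Ctrl and at 156, 154 and 159 TPM in Dox. It fell 1.24-fold (log2 fold change -0.31 ± 0.03, limma adjusted p = 0.000187). SYVN1, the ubiquitin ligase HRD1 itself, was at 61.2, 63.1 and 62.5 TPM and at 51.7, 51.6 and 54.4 TPM and fell 1.18-fold (log2 fold change -0.24 ± 0.04, limma adjusted p = 0.00118). In GENCODE 29, 7.24% of the exon bases of SYVN1 are shared with FAU on the same strand. FAU, a ribosomal protein gene, had a mean of 709 TPM against 57.4 TPM for SYVN1. SEL1L, the adaptor that holds SYVN1 in place, was at 45.4, 48.8 and 47.3 TPM in Ctrl and at 49.7, 53.5 and 49.4 TPM in Dox and did not pass the test (log2 fold change 0.11, 95% interval -0.0047 to 0.22). Its estimate is just under 0 after median-ratio rescaling (-0.0026) and quantile normalization (-0.019). The ratio of EDEM1 to HERPUD1 was 0.173, 0.196 and 0.175 within the Ctrl libraries and 0.339, 0.370 and 0.311 within the Dox libraries.

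The derlins form part of the path out of the ER. DERL1 (53.6 ± 2.44 and 49.7 ± 1.72 TPM), DERL2 (35.1 ± 0.807 and 35.3 ± 0.426 TPM) and DERL3 (6.67 ± 0.730 and 5.91 ± 0.559 TPM) did not pass the test as deposited, and their groups overlapped. All 3 are called lower after median-ratio rescaling (-0.21, -0.10 and -0.25) and quantile normalization (-0.23, -0.13 and -0.33). DERL3 rests on 178 to 240 reads per library, and 77.0% of its exon bases in GENCODE 29 are shared with SMARCB1 on the opposite strand. SMARCB1 had a mean of 67.6 TPM, and no source used here gives the strand setting, so the level of DERL3 is uncertain.

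By textbook assignment, 12 of the 40 genes are counted here as targets of ATF6 and 10 as targets of XBP1, although many answer to both factors. Of the ATF6 targets 5 were higher (HSPA5, CRELD2, HYOU1, CALR and PDIA6), 2 were lower (HERPUD1 and XBP1) and 5 did not pass (HSP90B1, PDIA4, MANF, SDF2L1 and SEL1L), with a median log2 fold change of 0.11. Of the XBP1 targets 1 was higher (EDEM1), 3 were lower (DNAJC3, PDIA5 and SSR1) and 6 did not pass, with a median of -0.01. The median of all tested genes was 0.10, with 35.9% of them higher and 17.8% lower. After median-ratio rescaling the ATF6 targets were 2 higher and 3 lower and the XBP1 targets 1 higher and 6 lower. After quantile normalization they were 6 and 2, and 1 and 6. Over all tested genes 26.7% were higher and 26.6% lower with median ratios, and 23.8% and 29.3% with quantiles. The difference between the 2 lists was not tested.

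ATF6 and XBP1 act through short promoter elements, so the promoters were searched for them. RefSeq promoter windows (250 bases before to 50 bases after the start, GRCh38.p14) matched 37 of the 40 genes. No entry matched PDIA3, DERL1 and DERL3. The ER stress response element (ERSE, CCAAT and CCACG with any 9 bases between them, either strand) was in 6 of the 37 windows (16.2%). Over all genes with a window it was found in 25 of 27305 genes (0.0916%). There a match in any window of a gene counted, whereas only the first window of each of the 37 genes was searched. The element ERSE-II (ATTGG and CCACG with 1 base between them, either strand) was found in 3 of the 37 (8.11%) and in 0.0696% of all genes. The core of the unfolded protein response element (UPRE, TGACGTGG, either strand) was found in 2 of the 37 (5.41%) and in 0.927% of all genes. In HYOU1 its match overlaps one of the ERSE-II matches. The core recognized by TEAD proteins, the DNA-binding partners of YAP1 (GGAATG, either strand), was found in 2 of the 37 (ERN1 and CREB3L2, 5.41%). It was found in 16.7% of all genes. A match is a description of letters in this window, and the binding of a factor was not measured. The genes include textbook targets of ATF6 and XBP1, so a larger share with an ERSE could be foreseen from their choice. The difference in shares was not tested.

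Genes with an ERSE did not move one way: HSPA5, CRELD2 and CALR were higher, XBP1 and CANX lower, and HSP90B1, with 2 matches, did not pass the test. Of the genes with ERSE-II, HYOU1 was higher, HERPUD1 lower and SDF2L1 did not pass. The calls of CALR and HYOU1 end after median-ratio rescaling (limma adjusted p = 0.406 and 0.171). That of CANX ends after quantile normalization (limma adjusted p = 0.111). The 250 bases before the start of 6 genes with a match are shown, those with the largest change first, and were chosen with those changes known. The printed genes with an ERSE (CRELD2, HSPA5 and CALR) were all called higher as deposited. Opposite changes stand side by side only for ERSE-II (HERPUD1 and HYOU1) and the UPRE core (DNAJC10 and HYOU1). Each promoter is written 5′ to 3′ on the gene's strand, with the matches in capitals.
CRELD2, chr22:49918384-49918633, plus strand, ERSE on the opposite strand, gene higher in Dox: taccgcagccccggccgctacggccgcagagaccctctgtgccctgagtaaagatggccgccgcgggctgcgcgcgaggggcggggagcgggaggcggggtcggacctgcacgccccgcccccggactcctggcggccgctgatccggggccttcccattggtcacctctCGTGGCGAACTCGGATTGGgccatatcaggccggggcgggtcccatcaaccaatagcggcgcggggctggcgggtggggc
HSPA5, chr9:125241344-125241593, minus strand, ERSE, gene higher in Dox: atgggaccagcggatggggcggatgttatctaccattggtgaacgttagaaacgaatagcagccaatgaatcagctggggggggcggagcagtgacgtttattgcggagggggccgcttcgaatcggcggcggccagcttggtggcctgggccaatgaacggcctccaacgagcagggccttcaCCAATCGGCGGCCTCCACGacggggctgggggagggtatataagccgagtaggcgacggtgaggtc
HERPUD1, chr16:56931892-56932141, plus strand, ERSE-II, gene lower in Dox: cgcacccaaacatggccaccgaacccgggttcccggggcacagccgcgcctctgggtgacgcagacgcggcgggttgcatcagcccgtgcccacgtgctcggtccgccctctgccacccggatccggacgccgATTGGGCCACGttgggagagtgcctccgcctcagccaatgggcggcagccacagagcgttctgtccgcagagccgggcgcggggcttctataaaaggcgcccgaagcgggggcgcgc
DNAJC10, chr2:182716007-182716256, plus strand, UPRE core on the opposite strand, gene lower in Dox: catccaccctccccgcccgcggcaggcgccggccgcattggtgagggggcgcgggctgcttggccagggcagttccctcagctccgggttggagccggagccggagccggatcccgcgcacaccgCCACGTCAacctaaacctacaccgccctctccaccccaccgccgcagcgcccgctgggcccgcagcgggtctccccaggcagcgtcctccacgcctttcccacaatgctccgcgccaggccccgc
HYOU1, chr11:119057206-119057455, minus strand, UPRE core on the same strand and 2 ERSE-II matches on the opposite strand, gene higher in Dox: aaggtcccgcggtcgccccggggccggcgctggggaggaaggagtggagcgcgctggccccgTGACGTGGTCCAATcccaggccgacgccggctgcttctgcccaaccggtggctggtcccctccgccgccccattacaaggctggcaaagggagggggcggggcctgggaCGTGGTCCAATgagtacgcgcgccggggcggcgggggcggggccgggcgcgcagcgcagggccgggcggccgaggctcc
CALR, chr19:12938359-12938608, plus strand, ERSE on the opposite strand, gene higher in Dox: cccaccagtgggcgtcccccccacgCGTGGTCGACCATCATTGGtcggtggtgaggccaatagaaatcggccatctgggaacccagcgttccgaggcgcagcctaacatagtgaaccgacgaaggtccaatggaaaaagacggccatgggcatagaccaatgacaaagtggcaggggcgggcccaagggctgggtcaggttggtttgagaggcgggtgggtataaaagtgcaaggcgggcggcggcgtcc
The ERSE of HSPA5 lies 66 to 48 bases before the start and that of CRELD2 80 to 62 bases before it, whereas that of CALR lies 225 to 207 bases before it. The ERSE of XBP1, a gene that was lower, lies 52 to 34 bases before the start.

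As deposited, the 40 genes together took 1.61 to 1.68% of all TPM in the Ctrl libraries and 1.72 to 1.82% in the Dox libraries. CALR, HSPA5 and HSP90B1 made up 57.9 to 58.7% of that sum in Ctrl and 60.6 to 61.1% in Dox. The other 37 genes summed to 6909 ± 117 TPM in Ctrl and 6973 ± 186 TPM in Dox, with overlapping libraries. The sum of the HSP70 and HSP90 group was 1.11-fold higher in Dox as deposited (6250 to 6621 and 7026 to 7385 TPM). Without HSPA5 it was 3443 to 3656 TPM in Ctrl and 3376 to 3642 TPM in Dox, and the groups overlapped. The sum of the degradation group went the other way, from 457 to 482 TPM in Ctrl to 446 to 454 TPM in Dox. Without HERPUD1 the direction turned as deposited, with 268 to 290 TPM in Ctrl and 287 to 300.2 TPM in Dox and overlapping groups. Median-ratio rescaling divides the Ctrl libraries by 0.937 to 0.989 and the Dox libraries by 1.02 to 1.05. That lowers every Dox sum against the Ctrl sums. The rises of the sums and the turn without HERPUD1 are therefore given for the deposited scale only.

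A further list of genes of ER folding, degradation, transport and sensing gave 32 higher and 24 lower of 101 tested. Over all tested genes, 35.9% were higher and 17.8% lower. The list had a median log2 fold change of 0.03, against 0.10 over all tested genes. After median-ratio rescaling 12 of the list were higher and 45 lower, with 26.7% and 26.6% of all tested genes. After quantile normalization the counts were 17 and 41, with 23.8% and 29.3% of all tested genes. Of 28 tested folding genes 6 were higher and 10 lower (3 and 18 with median ratios, 3 and 17 with quantiles). The rises included ERO1LB (now ERO1B), the second oxidase of the isomerases (13.1 ± 1.01 to 20.4 ± 1.302 TPM), CRELD1 (29.4 ± 1.51 to 37.2 ± 2.25 TPM) and the glucosidase MOGS (28.9 ± 0.2855 to 35.3 ± 2.16 TPM), a call that ends after quantile normalization (limma adjusted p = 0.0722). The falls included FKBP7, a prolyl isomerase (2.97 ± 0.267 to 1.44 ± 0.223 TPM), HSPA13, an HSP70 relative (72.9 ± 2.47 to 54.3 ± 2.74 TPM), and CLGN, a calnexin relative (77.5 ± 1.18 to 58.0 ± 3.27 TPM).

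Of 25 degradation genes 8 were higher and 4 lower (35.9% and 17.8% of all tested genes). Median-ratio rescaling turned this to 3 and 10 (26.7% and 26.6% of all tested genes). Quantile normalization turned it to 4 and 11 (23.8% and 29.3%). The ubiquitin-conjugating enzyme UBE2G1 rose 1.92-fold from 57.7 ± 3.59 to 111 ± 8.45 TPM, the translocon protein TRAM1 rose 1.499-fold and the VCP cofactor NPLOC4 rose 1.34-fold. AUP1, BCAP31 and RNF139 fell by 0.25, 0.25 and 0.22 on the log2 scale. Of 34 genes of translocation and ER exit 12 were higher and 6 lower (35.9% and 17.8% of all tested genes). With median ratios the counts were 2 and 12, and with quantiles 4 and 9, beside the shares just given for these rescalings. SSR3, SEC61A2 and SRP19 rose 1.23-fold, 1.21-fold and 1.16-fold, where those of SEC61A2 (limma adjusted p = 0.411) and SRP19 (0.0699) do not pass after quantile normalization, nor that of SEC61A2 after median-ratio rescaling (0.0703). The coat protein SEC24D fell 1.38-fold from 41.1 ± 1.08 to 29.8 ± 0.169 TPM, and the translocon subunits SSR4 and SEC61G fell by 0.28 and 0.26 on the log2 scale.

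Of 14 tested genes of the PERK branch and other sensors, 6 were higher, CREB3L1 among them, and 4 lower. The counts were 4 and 5 with median ratios and 6 and 4 with quantiles. Among all tested genes 35.9% were higher and 17.8% lower (26.7% and 26.6% with median ratios, 23.8% and 29.3% with quantiles). PERK's own gene EIF2AK3 was at 29.5, 29.3 and 31.9 TPM in Ctrl and at 20.6, 21.8 and 20.1 TPM in Dox and fell 1.45-fold (log2 fold change -0.51 ± 0.05, limma adjusted p = 0.000133). Its downstream factors ATF4 and DDIT3 fell by 0.68 and 1.68 on the log2 scale. PPP1R15A, the phosphatase subunit that reverses eIF2alpha phosphorylation, rose 1.91-fold from 18.2 ± 0.697 to 34.8 ± 0.799 TPM. WFS1, an ER membrane protein that restrains ATF6, rose 2.31-fold from 17.5 ± 1.08 to 40.5 ± 2.16 TPM. CREB3L1, another factor of the CREB3 family, was low in both groups, at 0.580, 0.470 and 0.321 TPM in Ctrl and at 2.58, 2.81 and 2.11 TPM in Dox. It passed the filter through the Dox libraries alone, so its call is not given as support.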

How the data were processed

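Stranded mRNA libraries (TruSeq, per the labels' protocols) of 6 samples were grouped by their titles. Per the submitters' processing notes, FastQC 0.11.2, STAR 2.5.3a, featureCounts and edgeR were used with hg19. The authors deposited 1 table of TPM per gene and library, each column summing to the same total. The annotation release and the strand setting: not given in the sources used here. Whole reads were recovered from TPM with GENCODE 29 exon lengths (9115 of 14833 tested genes) or otherwise with the smallest length giving whole reads (5718 genes; tolerance of 0.01 reads), which makes the reads of the latter a lower limit.

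The test was limma 3.58.1 (R 4.3.3; eBayes with a variance trend), two-sided with Benjamini-Hochberg adjustment, on log2(TPM + 1) of every gene reaching 1 TPM in 3 or more libraries; its fold changes understate those of low genes. Folds without "log2" are ratios of mean TPM. On simulated reads for Dox against Ctrl (14291 genes passing the filter, 50 changed per fold), 26% of genes were recovered at 1.2-fold and 88% at 1.5-fold, with 13 false calls. In the data themselves 53.7% of all tested genes were called, so these rates need not carry over. The 40 genes and the lists were chosen with earlier results of these data known. Every one of the 40 genes is named; of the further ER genes, the 3 largest called rises and falls per list with groups that do not overlap. Alternatives changed the pseudocount (0.1), the filter (none, or a mean of 5 TPM), the scaling (median ratios, quantiles, mitochondrially encoded genes removed) or the model (no trend, replicate block), or left out 1 library. A run of limma voom on the recovered reads was chosen with the data known. A planned description of protein ends was not run. Figures were drawn with matplotlib 3.10.9.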

Additional observations from a re-analysis of the deposited data

How the results depend on the processing

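Depth limits DERL3 (178 to 240 reads per library) and EDEM3 (438 to 603 reads) most. After median-ratio rescaling, counts of higher genes were 9 of the 40, 2 in the HSP70 and HSP90 group, 0 in the lectin and disulfide group, 2 of the ATF6 targets, 3 of the further folding, 3 degradation and 2 translocation genes, and 12 of all further ER genes. Counts of lower genes were 16 of the 40, 2 for translocation, 5 for degradation, 6 of the XBP1 targets, 18 further folding, 10 degradation and 12 translocation genes, and 45 of all further ER genes. Under this rescaling 26.7% of all tested genes were higher and 26.6% lower. After quantile normalization, counts of higher genes were 1 for degradation, 3 for sensors, 3 further folding, 4 degradation and 4 translocation genes, 17 of all further ER genes and 3536 of all tested genes, and counts of lower genes were 1 for lectins and disulfide enzymes, 2 for translocation, 5 for degradation, 6 of the XBP1 targets, 17 further folding and 11 degradation genes, 41 of all further ER genes and 4348 of all tested genes. The higher count of XBP1 targets was 2 with the stricter filter and with limma voom, which also gave 8 lower further degradation genes, 10 lower translocation genes and 37 lower of all further ER genes.

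Leaving out 1 library gave 14 to 17 higher and 8 to 10 lower of the 40 genes, 4 to 6 higher ATF6 targets, 1 to 2 higher XBP1 targets, 0 (without Ctrl replicate 3) to 1 lower translocation gene, 5 (without Dox replicate 2) to 7 higher further degradation genes and 3 (without Ctrl replicate 3) to 6 lower further translocation genes. The replicate block gave 16 higher and 11 lower of the 40 genes, adding MANF and HSP90B1 (all tested genes 5223 and 2618). Deviations of same-numbered libraries correlated at -0.00854, 0.0633 and 0.00346, and not every library correlated best with its own number. With so few libraries per group, these values cannot decide whether same-numbered libraries were handled as pairs.

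Signs changed as follows. After median-ratio rescaling these were PDIA3 (-0.10), PDIA4 (-0.11), SEL1L (-0.0026), DERL2 (-0.10), SDF2L1 (-0.0035), MANF (-0.0136) and SEC61A1 (-0.0673), and after quantile normalization HSP90B1 (0.13), P4HB (0.0394), SEL1L (-0.0185), DERL2 (-0.13) and SEC61B (0.0295). With limma voom they were PDIA3 (-0.0352), PDIA4 (-0.0377) and DERL2 (-0.0294), and without mitochondrially encoded genes SEC61B (0.0059). Leaving out 1 library took PDIA3 from -0.0169 to 0.0350, PDIA4 from -0.0364 to 0.0328, DERL2 from -0.0071 to 0.0227, SEC61B from -0.0159 to 0.0181 and SPCS2 from -0.0443 to 0.0053. P4HB was called as deposited, and the others were not. The cause was not tested.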
